A study of Arabidopsis thaliana with 12 samples.

Results

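DI21, SIS and XERICO are 3 Arabidopsis thaliana genes tied by name or by known role to drought, salt and the stress hormone abscisic acid. Their features were taken as those to which the array's platform annotation gives one of these genes and no other. This gave 1 feature for each gene, 3 of the 3439 features on the array and of the 692 that carry a single gene. DI21 is locus AT4G15910, SIS is AT5G02020 and XERICO is AT2G04240. A further feature lists SIS together with other genes and was not used. The series holds 12 arrays of total RNA from wild-type Wassilevskija plants, with 6 samples treated with water and 6 treated with 100 mM proline over 3 h. All plants were of the same genotype, and the labels describe the proline dose as one that brings the amino acid to toxic levels in the cells. No time is named in the titles of the water samples, so from these a difference in time and the proline itself cannot be told apart. The sources used here do not name the plant part or age, nor say whether replicates came from separate plants. The p-values therefore rest on a spread between samples that may be technical.

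Abscisic acid rises when a plant loses water or meets salt. It binds receptors that block a group of protein phosphatases, which frees kinases to switch on transcription factors and, through them, protective proteins such as the late embryogenesis abundant (LEA) proteins. Proline is one of the solutes that build up under the same stresses, and in excess it slows growth. DI21 was named as a drought-induced gene and encodes a protein of the LEA group. SIS stands for salt-induced and serine-rich, after the condition that raises its transcript and the makeup of its protein. XERICO encodes a small protein with a RING-H2 zinc finger, a domain typical of ubiquitin ligases, and plants that overexpress it hold more abscisic acid and withstand drought better.

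After proline, the transcripts of DI21 and SIS were higher and that of XERICO was slightly lower. XERICO was lower under each of the scalings tried, but passed the test under only part of them. It also missed with successive replicates averaged, and without replicates 1 and 2 or without replicates 3 and 4 of both groups. SIS missed with successive replicates averaged and no block. DI21 rose 2.99-fold (95% interval 2.22 to 4.02, n = 6 per group) and SIS rose 1.93-fold (95% interval 1.36 to 2.75). XERICO had a log2 change of -0.39 (95% interval -0.64 to -0.14). Changes were common on this array. Among the 2861 features tested, 44.1% passed the threshold of an adjusted p under 0.05, with 18.3% higher and 25.9% lower. Of the single-gene features 46.5% passed. With 2 of the 3 genes higher and 1 lower, the count by itself does not set them apart from the array. In RNA from bulk tissue, fewer cells of a type and less RNA per cell cannot be told apart.

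DI21 had deposited intensities from 0.114 to 0.211 in the water samples, with a median of 0.193. After proline they ran from 0.490 to 0.666, with a median of 0.616. The lowest proline sample was above the highest water sample, so the groups did not overlap, in the deposited or in the normalized values. Of the 2674 features measured on all 12 arrays, 12.8% had all normalized proline values above all water values. The group means were 0.174 ± 0.0426 for water and 0.601 ± 0.0676 for proline (SD, n = 6). On quantile-normalized log2 values, in which every array is given the same distribution, the change was 1.58 ± 0.20 SE (limma, adjusted p = 5.59e-05). This was the change ranked 101 from the top among the 2861 tested features and 25 among the 576 single-gene features tested.

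SIS, the salt-induced gene, was less even between samples. Its deposited intensities ran from 0.170 to 0.408 in water, with a median of 0.271, and from 0.454 to 0.764 after proline, with a median of 0.636. As deposited the groups did not overlap, as was the case in this direction for 18.2% of features. After normalization they did, since water replicate 2 (log2 -1.10) lay above proline replicate 4 (log2 -1.35) and proline replicate 5 (log2 -1.16). The means were 0.269 ± 0.0918 and 0.621 ± 0.115 (SD, n = 6), and the normalized log2 change was 0.95 ± 0.23 SE (limma, adjusted p = 0.00592), ranked 272 from the top among all tested features. When successive replicates of a group (1 with 2, 3 with 4, 5 with 6) were averaged, its adjusted p by limma was 0.0593, and 0.0387 with the pair of replicates as a block besides.

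XERICO, the RING-H2 gene, had deposited intensities from 3.08 to 4.26 in water, with a median of 3.81. After proline they ran from 2.91 to 3.61, with a median of 3.39. The groups overlapped, because water replicates 5 and 6 (3.15 and 3.08) were below 4 of the 6 proline samples. The means were 3.73 ± 0.515 in water and 3.30 ± 0.300 after proline (SD, n = 6). The normalized log2 change was -0.39 ± 0.11 SE (limma, adjusted p = 0.0144), and 867 features ranked at or below it. In the values as deposited, the change was -0.17 (95% interval -0.40 to 0.070) with an adjusted p by limma of 0.242, where 16.9% of features passed as lower, and after cyclic loess it was -0.25 (adjusted p = 0.135). The median change of all tested features moved too, from 0.057 as deposited to -0.12 after quantile normalization and -0.055 after cyclic loess. XERICO thus lay below the median of the array by each of these scalings. By definition as many features lie below a median as above it, so this gives a position and is no test of a fall.

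**Figure D1:**
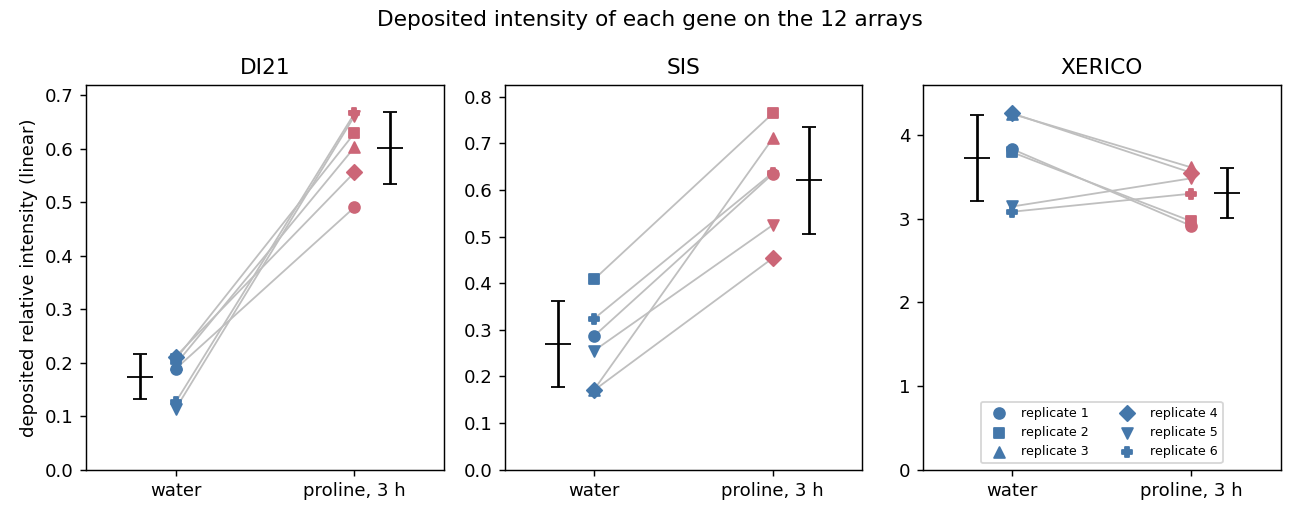
Deposited relative intensity (linear axis from 0, each gene with its own axis) in the 6 water and 6 proline samples, with lines joining samples of the same replicate number and bars giving the mean ± SD. For DI21 every proline sample (0.490 to 0.666) sits above every water sample (0.114 to 0.211), whereas the XERICO groups overlap and its lines for replicates 5 and 6 run upward.

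**Figure D2:**
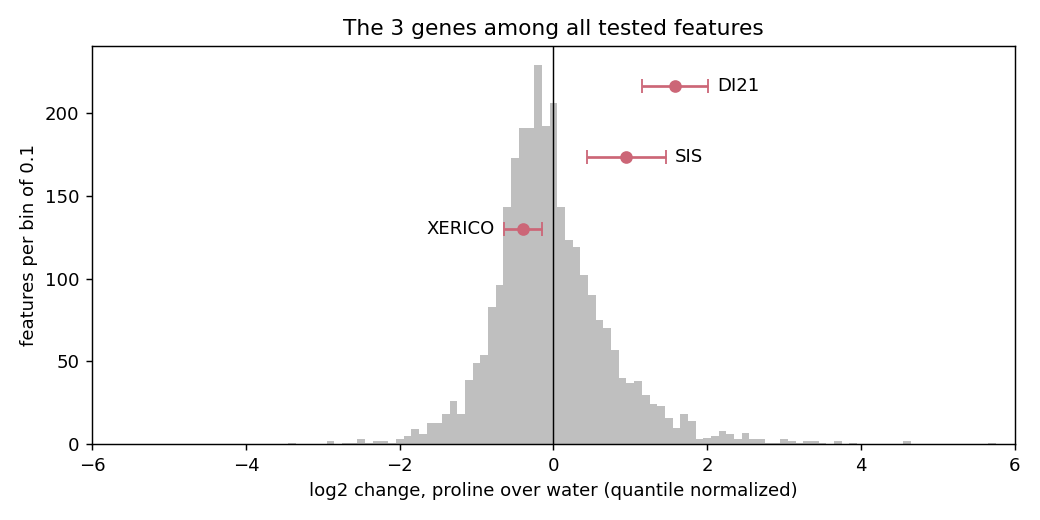
Number of tested features by log2 change after quantile normalization (grey bars, 2861 features), with the 3 genes as points and their 95% intervals (the height of the points has no meaning). DI21 (1.58) and SIS (0.95) lie in the upper tail and XERICO (-0.39) within the main body, whose median is -0.12.

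The rank of each gene within its own array gives a measure that no scaling of whole arrays can move. Quantile normalization works from these same ranks, so they are no separate check on the normalized changes. A rank can also move because other features move. DI21 stood at the 40.9 ± 11.5 percentile of the non-zero features in water and at 75.1 ± 2.28 after proline (SD, n = 6, exact permutation test with 924 splits, two-sided p = 0.00216, the smallest it can give). SIS went from the 55.9 ± 12.3 to the 75.1 ± 4.94 percentile (exact permutation p = 0.00649). For XERICO the percentile was 96.3 ± 0.481 in water and 95.3 ± 0.292 after proline (exact permutation p = 0.00649). The rank of XERICO therefore fell by 0.91 percentile points. The exact permutation p of each gene was the same on the normalized values. These splits treat all 12 arrays as separate.

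Samples of the same replicate number deviated together across the array, and so did successive replicates within a group, so the change was also followed number by number. DI21 was higher after proline in 6 of 6 numbers. The share of all features with 1 direction in every number was not counted, here or for SIS and XERICO. In all successive pairs, 62.8% of features had 1 direction after normalization, and successive numbers are not separate units. The normalized log2 differences of DI21 were 1.17, 1.34, 1.30 and 1.05 for replicates 1 to 4, and 2.39 and 2.23 for replicates 5 and 6. The larger difference in the last pair went with a lower water level, at a mean intensity of 0.120 against 0.197 and 0.204 in the other pairs, while the proline level was 0.663 against 0.560 and 0.579. Without replicates 5 and 6 of both groups the log2 change of DI21 was 1.22 (limma, adjusted p = 1.52e-04).

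SIS was also higher in 6 of 6 numbers, with normalized differences from 0.53 in replicate 2 to 1.80 in replicate 3. Here the pair of replicates 3 and 4 had the lowest water level, a mean intensity of 0.171 against 0.347 and 0.289. Without this pair the log2 change was 0.70 (limma, adjusted p = 0.0272). The low water samples of DI21 and of SIS were therefore different ones.

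XERICO was lower in 6 of 6 numbers after normalization but in 4 of 6 as deposited. The normalized differences were -0.52, -0.54, -0.50 and -0.64 for replicates 1 to 4, and -0.060 and -0.10 for replicates 5 and 6. As deposited, replicates 5 and 6 were higher after proline, with ratios of 1.11 and 1.07, against 0.761 to 0.850 in the others. Members of a pair were close, with normalized log2 values at most 0.045 apart in water and 0.098 after proline, while the means of the 3 pairs spanned 0.54 in water and 0.19 after proline. With the pairs averaged, the adjusted p of XERICO by limma was 0.157, or 0.152 with the pair as a block. It was 0.143 without replicates 1 and 2 of both groups (log2 -0.32) and 0.0956 without replicates 3 and 4 (log2 -0.30). Without replicates 5 and 6 the log2 change was -0.56 (adjusted p = 0.00598). What sets replicates 5 and 6 apart is not given in the labels and was not tested.

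The share of features that passed was smaller with the pairs averaged, at 23.1%, of which DI21 was one (adjusted p = 0.0124 by limma). All 3 genes had 1 direction in the 3 pairs after normalization, as did 62.8% of the features with a value in each pair. As deposited, XERICO turned direction in the last pair, at 0.12 against -0.37 and -0.25.

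**Figure D3:**
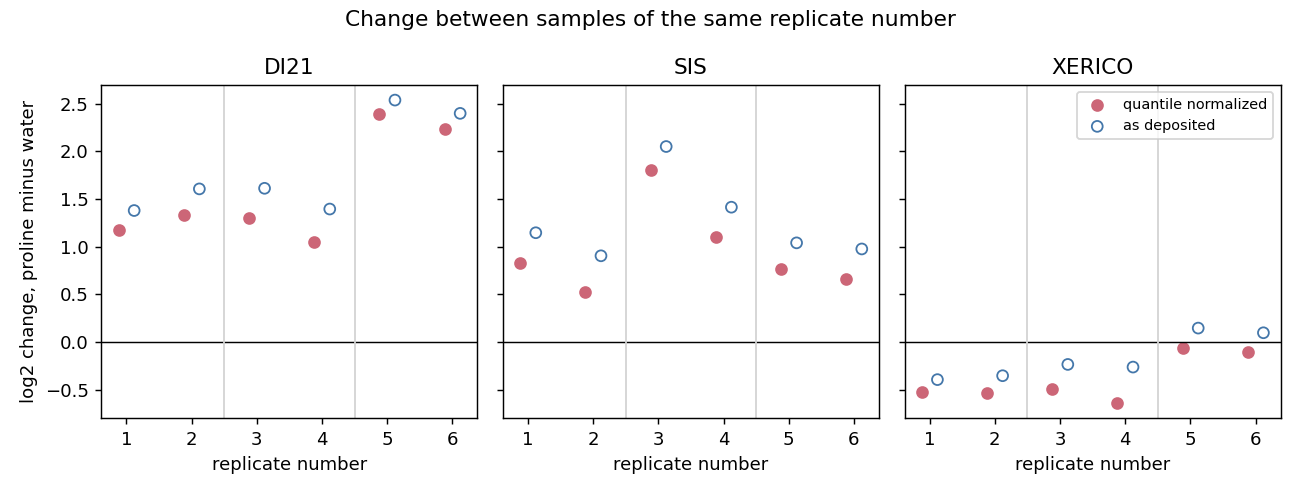
Log2 difference between the proline and the water sample of the same replicate number, after quantile normalization (filled points) and as deposited (open points), with vertical lines between successive pairs of replicates. DI21 differences are above 2 in replicates 5 and 6 alone, the largest SIS difference is in replicate 3, and XERICO is near 0 in replicates 5 and 6.

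**Figure D4:**
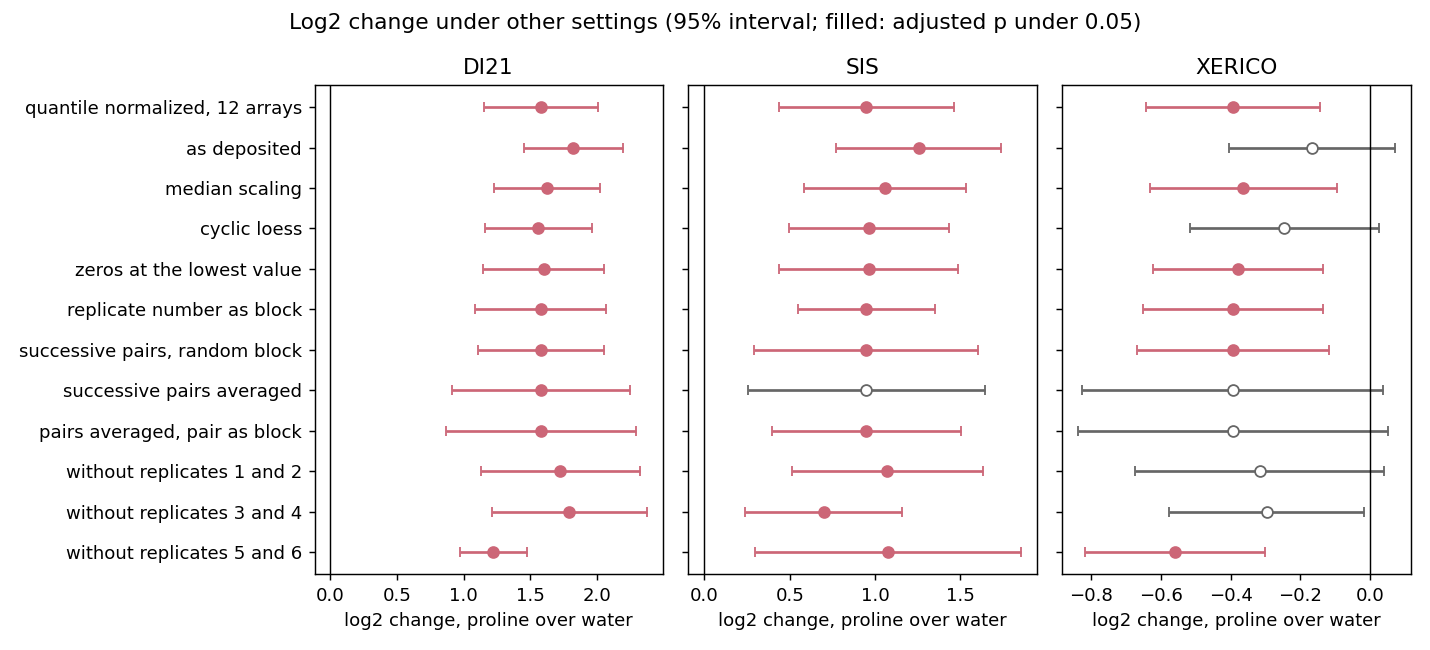
Log2 change with its 95% interval for each gene under 12 settings, filled red where the adjusted p by limma was under 0.05 and open grey where it was not (each gene has its own axis). DI21 is filled in all 12 settings, SIS is open with the pairs averaged, and XERICO is open in 6.

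Whether the 3 genes changed unequally was asked within arrays, by taking the difference of their deposited log2 values on each array and comparing it between the groups. Such a difference does not move when a whole array is brighter or dimmer. DI21 rose against XERICO by 1.99 (95% interval 1.74 to 2.24) and SIS rose against XERICO by 1.42 (95% interval 0.75 to 2.09). In both cases the groups did not overlap (exact permutation test, two-sided, p = 0.00216 each and 0.00325 adjusted over the 3 contrasts). How often other pairs of features separate in this way was not counted. Among single features as deposited, 18.2% did not overlap with proline higher and 7.52% with proline lower, so separation was common. Under an exact test that flips the signs of same-numbered differences, the adjusted p was 0.0469 for both contrasts with XERICO. Before adjustment the smallest p this test can give is 0.0312. The intervals and permutation tests of these contrasts treat every array as separate, and the sign test does so for every replicate number. Successive replicates of a group had a consensus correlation of 0.52 across the array. The intervals may therefore be too narrow and the p-values too small. With successive replicates averaged into 3 pairs, no exact test can pass. DI21 changed more than SIS by 0.57, with a 95% interval from -0.14 to 1.27 (exact permutation p = 0.0996). That contrast therefore did not pass, and the interval does not show that they changed alike. It was 0.73 without water replicate 3 and 0.75 without water replicate 4 (exact permutation p = 0.0411 and 0.0325, adjusted over the contrasts). Without replicates 3 and 4 of both groups it was 0.96 (adjusted exact permutation p = 0.0286), and without replicates 5 and 6 it was 0.12 (adjusted exact permutation p = 0.714).

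In water, the log2 difference between DI21 and XERICO was steadier than DI21 itself. It had an SD of 0.21 over the 6 water arrays, whereas DI21 alone had an SD of 0.39 and XERICO alone one of 0.20. Both were lowest in water replicates 5 and 6. The difference between DI21 and SIS had an SD of 0.71, above that of SIS alone (0.50). After proline the same SD was 0.17 for DI21 minus XERICO and 0.31 for DI21 minus SIS. Within a group, SIS was the most variable of the 3, with a coefficient of variation of its deposited intensity of 34.1% in water and 18.5% after proline. It was 24.5% and 11.3% for DI21 and 13.8% and 9.09% for XERICO.

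The wider drought and abscisic acid pathway could not be followed beyond these genes. For it 139 genes were listed by hand, from hormone synthesis, receptors, phosphatases and kinases to transcription factors, LEA proteins, ubiquitin ligases, transporters and osmoprotectants. Of these, 3 had a feature of their own, and these were DI21, SIS and XERICO. A further 2 lay only on features shared with other genes, and are not described. None of the 14 genes of abscisic acid synthesis and breakdown, the 9 receptors, the 9 phosphatases or the 25 transcription factors had its own feature. The annotation gives no gene for 1877 of the 3439 features, so listed genes may be on the array without a name. Among the single-gene features, 2 had a name or synonym with a word for drought, salt, cold, stress or abscisic acid, which were DI21 and SIS, and none was named as a RING protein. Many of these features are named by a locus code alone, and protein descriptions were not searched. Other stress or RING genes may therefore be among them.

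Among the other 534 single-gene features measured on all arrays, the patterns closest to each gene were ranked by Pearson's correlation of normalized log2 values over the 12 samples. These values share arrays and normalization and contain the difference between the groups, so the correlation of deviations from the group means is given too, and both are descriptions. For all genes picked this way, the log2 changes and adjusted p follow in part from the picking. They are descriptions as well. Closest to DI21 were AT4G23080 (r = 0.97, or 0.77 within groups), AT5G06010 (0.96 and 0.80) and AT1G08050 (0.96 and 0.85). All 3 rose after proline, with log2 changes of 1.40, 1.78 and 1.38 (limma, adjusted p = 7.50e-06, 5.21e-08 and 7.93e-04). AT5G06010 went from an intensity of 0.694 ± 0.0792 to 2.85 ± 0.314 (SD, n = 6).

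Closest to SIS were AT3G20150 (r = 0.90, or 0.73 within groups), AT3G47650 (0.87 and 0.66) and ATATH8 (AT2G39190, 0.86 and 0.76). Their log2 changes were 0.82, 0.55 and 0.68 (limma, adjusted p = 0.00108, 0.00463 and 0.0359). AT3G20150 went from 0.218 ± 0.0507 to 0.447 ± 0.0446 (SD, n = 6).

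Closest to XERICO was OTP70 (AT4G25270), a pentatricopeptide repeat protein of organelle transcript processing (r = 0.94, or 0.86 within groups). Its normalized log2 change was -0.37 (limma, adjusted p = 0.0157), while its deposited intensity was 0.507 ± 0.0479 in water and 0.504 ± 0.0666 after proline (SD, n = 6). As with XERICO, the fall of OTP70 therefore came out larger on the normalized scale than in the deposited means. AT2G41120 (0.90 and 0.78) and AT2G14660 (0.87 and 0.68) followed, with log2 changes of -1.22 and -0.70 (limma, adjusted p = 0.00714 and 0.00420).

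Across the array, between 453 and 534 features per sample were listed at 0. The median log2 intensity of the others ran from -2.29 to -2.14 in water and from -2.08 to -1.94 after proline. Their interquartile range ran from 1.95 to 2.09 in water and from 2.40 to 2.54 after proline. The groups thus differed in level and spread before normalization, and quantile normalization removes such differences. None of the 3 genes was at 0 in any sample. The sources used here give no signal over background, and the number of arrays limits the precision.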

How the data were processed

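Per the labels, total RNA of 12 samples was measured on one array each, and groups came from the sample titles. The deposited values are a relative intensity on a linear scale with a ceiling of 100. The scanner, the background correction and the scaling by the authors are not given in the sources used here. Zeros were taken as missing, log2 values were quantile normalized over all 3439 features, and the 2861 features with at least 4 values per group were tested with limma 3.58.1 in R 4.3.3 (lmFit and eBayes, two-sided, Benjamini-Hochberg over all tested features, threshold 0.05, no block). Random blocks used statmod 1.5.0. Levels are deposited intensities, and changes are on the normalized log2 scale unless named otherwise. Intervals of differences between genes assume normal errors.

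Gene names came from the platform annotation, which is old. Of the 692 single-gene features, 690 were found in the gene table of TAIR10.1. The 3 genes, the lists and the tests were chosen with earlier results of these data known. Named genes are the 3 members, every listed pathway gene tested, and the 3 closest patterns per member.

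The labels give both groups replicate numbers 1 to 6 without saying what a number means. Over 2674 features, samples that share a number correlated at 0.18 to 0.40 once group means were subtracted, so the numbers pair the samples, from the data. With the number as a block, no call of the 3 genes changed. The consensus correlation within successive replicates of a group was 0.52, so their averages are given where a call changed. On simulated data made from 2861 features with independent samples and 200 changed, the test found 92.3% of changes with a log2 size of 2, 77.8% of those of 1 and 41.8% of those of 0.5, and 5.23% of its calls were false. In the real data successive replicates were correlated and 44.1% of features passed, so these shares may not hold there.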

Additional observations from a re-analysis of the deposited data

How the results depend on the processing

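DI21 kept its direction and its call under all alternatives run, with log2 changes of 1.22 to 1.82 and an adjusted p of at most 0.0229. With the replicate block its adjusted p by limma was 0.00106, and those of SIS and XERICO were 0.00374 and 0.0220. SIS lost its call only with successive replicates averaged (log2 0.95, adjusted p = 0.0593). XERICO kept its direction throughout, but missed as deposited (log2 -0.17), after cyclic loess (-0.25), with the pairs averaged with or without the pair as a block (-0.39) and without the first (replicates 1 and 2, -0.32) or second (3 and 4, -0.30) pair, and the cause was not tested. In these 6 settings 0 of the 3 genes were lower past the threshold. For averaged pairs 1 gene was higher without the block and 2 were with it. Among all tested features, 16.9% were lower as deposited and 21.1% by cyclic loess. Averaging without the block gave 11.9% lower and 11.2% higher. At shares such as these, counts among 3 genes do not set them apart from the array. Leaving out each sample changed no call of the 3 genes. The log2 change then ran from 1.45 to 1.68 for DI21, 0.83 to 1.10 for SIS and -0.46 to -0.34 for XERICO.

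Of all features, 1263 changed, 523 higher and 740 lower. With the pairs averaged 661 changed, 321 higher and 340 lower, and adding the pair as a block gave 692, 337 of them lower. This fit has fewer samples. As deposited 702 were higher and 483 lower. After cyclic loess, 598 were higher and 605 lower. Without each sample in turn 1188 to 1218 changed, 495 to 521 higher and 676 to 716 lower, with 2 of the 3 genes higher and 1 lower each time.

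The alternatives for the contrasts between genes were chosen after the data were seen, as was the pair as a random block. The contrast of DI21 with SIS ran from 0.41 to 0.75 without each sample, and passed without water replicate 3 (0.73), without water replicate 4 (0.75) and without replicates 3 and 4 of both groups (0.96). With each sample left out, DI21 against XERICO ran from 1.92 to 2.04 and SIS against XERICO from 1.26 to 1.55. Averages of 3 pairs allow no exact test to pass. Of 6 groups of 6 values, none held a sample beyond Dixon's limit. This test looks for a single outlying value and can miss 2 that lie together, such as DI21 in water replicates 5 and 6.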
